A study of Mus musculus with 6 samples.

Results

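The genes of the mouse proteasome were read across CD4 T cells of NLRP3KO and wild-type (WT) mice. A gene was taken when its symbol began with Psma, Psmb, Psmc, Psmd, Psme, Psmf or Psmg followed by a digit and its entry had the status OK in all 6 gene tables. This gave 49 genes of the 23415 usable entries. By known role they were 8 genes of the alpha ring and 7 of the beta ring of the core particle, the 3 immunoproteasome genes Psmb8, Psmb9 and Psmb10, the thymus gene Psmb11, 6 ATPases and 11 other subunits of the regulatory cap, 7 assembly chaperones, 4 activators and the inhibitor gene Psmf1. The symbol rule also took Psmc3ip, a meiotic recombination gene that encodes no proteasome subunit.

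The groups were, in each stage, NLRP3KO and WT cells: naive CD4 T cells from spleen and lymph nodes, and cells kept for 3 or 6 days under T helper type 2 (Th2) conditions. All mice were C57/Bl6j aged 7 weeks, and NLRP3KO mice lack the sensor protein of the NLRP3 inflammasome. Th2 cultures held IL-4 at 10 ng/ml and an interferon gamma blocking antibody, on plates coated with antibodies to CD3 and CD28. Each group was 1 library. No group therefore has a replicate, no p-value is given, and every difference is one between 2 libraries. Per the labels, the 4 Th2 libraries were made from RNA depleted of ribosomal RNA and the 2 naive libraries from purified mRNA, so that culture stage and library method cannot be told apart. How many mice gave the cells of a library is not given in the sources used here.

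The proteasome degrades proteins tagged with ubiquitin. A barrel of alpha and beta rings holds the catalytic sites, a cap with a ring of ATPases unfolds and feeds the substrate, and other activators can take the place of the cap. In lymphocytes and in cells exposed to interferon gamma, Psmb8, Psmb9 and Psmb10 replace the catalytic subunits Psmb5, Psmb6 and Psmb7, which alters the peptides available for MHC class I, and T cells are known to raise protein synthesis and turnover on activation.

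The promoter sequences of the immunoproteasome genes Psmb8 and Psmb9, and of Psmb6, the constitutive subunit that Psmb9 replaces, are shown because these genes carry the catalytic exchange described next. The sequences are RefSeq's on GRCm38.p6, 5′ to 3′ on the strand of the gene. The Psmb8 stretch is chr17:34198087-34198116 on the plus strand, the Psmb9 stretch is chr17:34187372-34187401 on the minus strand, and the Psmb6 window is chr11:70525157-70525356 on the plus strand. The Psmb8 and Psmb9 stretches lie in an exon of another annotated isoform, so only 30 bases around the motif are printed for each. They are upstream of 1 listed start and may be transcribed from another. Capitals mark the motifs found by letters on either strand.
Psmb8: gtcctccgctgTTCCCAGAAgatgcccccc
Psmb9: cccttgcgcgaTGATGGGGCGGggcctcag
Psmb6: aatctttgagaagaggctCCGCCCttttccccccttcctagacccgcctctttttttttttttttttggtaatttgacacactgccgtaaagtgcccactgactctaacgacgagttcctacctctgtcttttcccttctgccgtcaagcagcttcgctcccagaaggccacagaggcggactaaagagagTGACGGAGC
In Psmb8 the capitals are a match to TTCNNNGAA, the form of a gamma-activated site, 97 to 89 bases before the start. In Psmb9 a match to TGANNNNGC, the form of an antioxidant response element, at 60 to 52 bases overlaps a GC box (GGGCGG) at 55 to 50 bases. Psmb6 had a GC box at 182 to 177 bases and the antioxidant form at 9 to 1 bases before its start. Over the 200 bases before the first listed start, RefSeq promoters were searched for 41 members and for 27025 genes in all. A check of start and strand against annotated transcripts matched for 35 of the 41 members. TTCNNNGAA was in 1 of the 41 (2.44%, Psmb8) and in 5.62% of all promoters, TGANNNNGC in 26.8% and 29.5%, GGGCGG in 53.7% and 31.3%, and the interferon-stimulated response element in 7.32% and 2.33%. CCAAT was in 15 of the 41 members (36.6%) and in 8112 of the 27025 promoters. Psmb9 and Tap1, a peptide transporter subunit, lie head to head, with RefSeq starts 226 bases apart. No match was listed for Psmb10, but whether its promoter was among the 41 searched is not recorded. These matches are letters in a sequence and say nothing about binding.

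The number of fragments on genes set what could be seen. The values are FPKM, fragments normalised to transcript length and library depth, as deposited with a lower and an upper bound. The estimated fragments on genes were 1440147 and 1671641 in naive NLRP3KO and WT, 26353 and 30831 in NLRP3KO and WT at day 3, and 5824 and 32208 in NLRP3KO and WT at day 6. On the members the fragments came to 6269 and 8535, 101 and 117, and 21 and 147 in the same order. The estimated totals behind the deposited FPKM were 3110217 and 4568423, 474933 and 603753, and 129732 and 561805, again in this order. A smaller part of the total thus lay on genes in the Th2 libraries than in the naive ones, so their low fragment numbers are not a matter of sequencing depth alone. The members above 0 numbered 46 and 47 in naive NLRP3KO and WT, 32 and 34 at day 3, and 12 and 40 at day 6, and at day 6 no member of the NLRP3KO library had a lower bound above 0. Nlrp3 was listed at 0 in all 3 NLRP3KO libraries and had 0.0569 FPKM in naive WT, under the 0.163 FPKM that 3 fragments give there, and was listed at 0 in WT at day 3 and day 6, so the deletion could not be checked at this depth. T cell markers summed to 1986 and 1554 FPKM in naive NLRP3KO and WT and to between 50.02 and 76.2 FPKM in the Th2 libraries. B cell, myeloid, NK and erythroid markers were at 0 in the Th2 libraries, apart from 1.57 FPKM of B cell markers in WT at day 3, and CD8 markers were at 0 there.

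**Figure D1:**
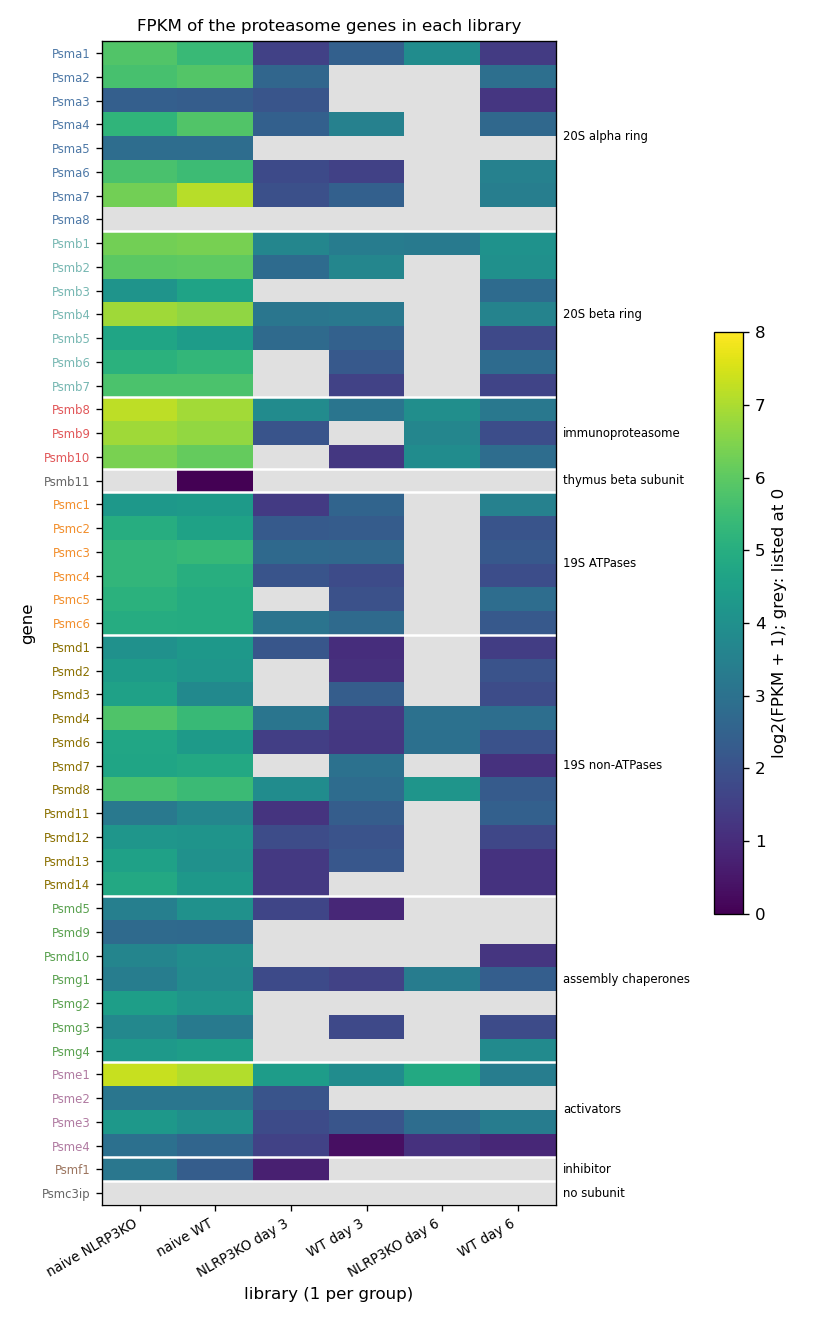
FPKM of the 49 genes (rows, grouped by role) in the 6 libraries (columns), coloured as log2(FPKM + 1), with genes listed at 0 in grey. The naive libraries hold 46 and 47 members above 0 in NLRP3KO and WT, and the NLRP3KO day 6 library holds 12.

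The immunoproteasome genes were among the most abundant members in the naive libraries. Psmb8, the immunoproteasome counterpart of Psmb5 (mm9 chromosome 17, 34335140 to 34338399), had 145 FPKM (bounds 114 to 145) in naive NLRP3KO and 118 (93.7 to 117) in naive WT. It had 13.7 and 7.68 FPKM in NLRP3KO and WT at day 3, and 14.3 and 8.21 FPKM at day 6. Of the 3 immunoproteasome genes Psmb8 had the highest FPKM in each of the 6 libraries.
Psmb9, which replaces Psmb6 (chromosome 17, 34319044 to 34324275), had 115 and 104 FPKM in naive NLRP3KO and WT, 3.18 FPKM in NLRP3KO at day 3 against a listed 0 in WT, and 11.7 and 2.67 FPKM at day 6. Psmb10, which replaces Psmb7 (chromosome 8, 108459628 to 108462292), had 83.2 and 68.0 FPKM in naive NLRP3KO and WT, was listed at 0 in NLRP3KO against 1.47 FPKM in WT at day 3, and had 13.7 and 6.30 FPKM at day 6. The Th2 values of these genes rest on between 0 and 7.94 estimated fragments each.
Of the constitutive subunits, Psmb5, which carries the chymotrypsin-like site, had 25.1 and 20.3 FPKM in naive NLRP3KO and WT, 5.80 and 4.57 at day 3, and a listed 0 against 2.43 at day 6. Psmb6, with the caspase-like site, had 33.8 and 37.9 FPKM in naive NLRP3KO and WT, a listed 0 against 3.72 at day 3, and a listed 0 against 5.96 at day 6. Psmb7, with the trypsin-like site, had 52.5 and 51.7 FPKM in naive NLRP3KO and WT, a listed 0 against 2.01 at day 3, and a listed 0 against 2.15 at day 6. The 3 constitutive genes were all listed at 0 in NLRP3KO at day 6, where 3 fragments correspond to 25.7, 29.0 and 22.6 FPKM of Psmb5, Psmb6 and Psmb7.

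The ratio of Psmb8 to Psmb5, both per length, was 5.78 in naive NLRP3KO and 5.79 in naive WT. Psmb9 over Psmb6 was 3.40 and 2.74, and Psmb10 over Psmb7 was 1.58 and 1.32, in the same libraries. At day 3 Psmb8 over Psmb5 was 2.36 in NLRP3KO and 1.68 in WT, with 2.48 estimated fragments of Psmb5 in each. In WT, Psmb9 over Psmb6 was 0 at day 3 and 0.449 at day 6, Psmb10 over Psmb7 was 0.732 at day 3 and 2.93 at day 6, and Psmb8 over Psmb5 was 3.37 at day 6. The other ratios in the NLRP3KO Th2 libraries had a listed 0 below the line. Summed over the 3 genes of each kind, the ratio was 2.91 in NLRP3KO and 0.889 in WT at day 3, and 1.63 in WT at day 6. The level of Psmb5 is uncertain, since 88.4% of its transcript is at least 97% identical to transcripts of other genes, mainly the processed pseudogene Gm3375. For Psmb7 35.1% of the transcript is shared with Nek6, while no such stretch was found for Psmb6.

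Counted as fragments, Psmb8, Psmb9 and Psmb10 made up 77.8% (95% exact binomial interval 75.5 to 80.03) of the fragments of the 6 catalytic genes in naive NLRP3KO and 75.1% (72.9 to 77.1) in naive WT. At day 3 they were 9 of 11 fragments in NLRP3KO, or 81.8% (48.2 to 97.7), and 53.8% (25.1 to 80.8) in WT. At day 6 they were 6 of 6 in NLRP3KO, with an interval from 54.1% to 100%, and 68.8% (41.3 to 89.0) in WT. In the Th2 libraries these intervals overlap between the genotypes at each day, so a difference between genotypes was not detectable at this depth. The intervals cover counting error only, as the libraries were amplified without molecular identifiers.

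**Figure D2:**
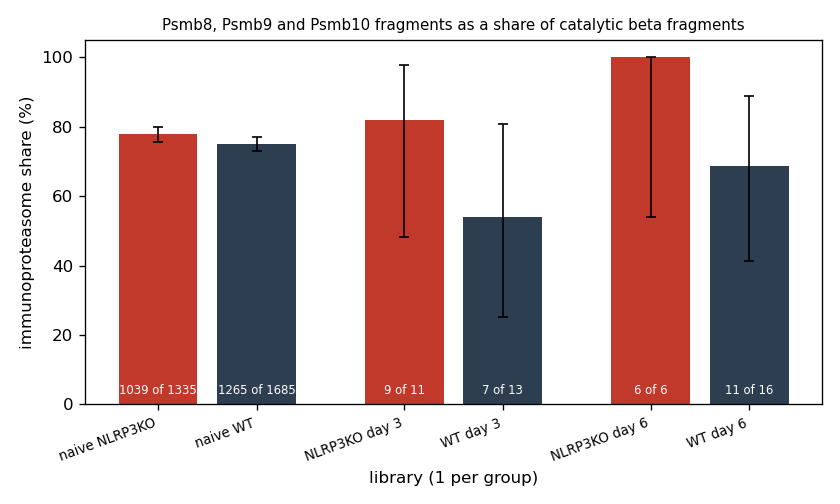
Fragments of Psmb8, Psmb9 and Psmb10 as a percentage of the fragments of the 6 catalytic beta genes, with 95% exact binomial intervals and the fragment numbers inside the bars. The naive shares, 77.8% in NLRP3KO and 75.1% in WT, rest on over 1000 immunoproteasome fragments each, and the Th2 shares on 6 to 11.

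Of the activators, Psme1, a subunit of the interferon-induced ring that opens the core, had 159 and 134 FPKM in naive NLRP3KO and WT, 20.2 and 13.9 at day 3, and 27.9 and 9.56 at day 6. It was the highest member in naive NLRP3KO and second to Psma7 in naive WT. Its partner Psme2 had 7.79 and 7.75 FPKM in naive NLRP3KO and WT, 3.23 against a listed 0 at day 3, and a listed 0 in both genotypes at day 6. Psme2 shares 82.5% of its transcript at 97% identity or more with Psme2b, so that its low level beside Psme1 is uncertain. Psme3, which forms a nuclear activator, had 18.2 and 14.7 FPKM in naive NLRP3KO and WT, 2.55 and 3.35 at day 3, and 6.24 and 9.33 at day 6. Psme4, the large single-chain activator that is known for degrading acetylated histones, had 6.72 and 5.10 FPKM, then 2.00 and 0.263, then 1.22 and 0.847 FPKM in the same order.

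Alpha ring genes ran up to 76.8 FPKM (Psma7) in naive NLRP3KO and 139 FPKM (Psma7) in naive WT, with medians of 43.6 and 42.8 FPKM over the 8 genes. The testis gene Psma8 was listed at 0 in all 6 libraries, as was Psmc3ip, and the thymus gene Psmb11 reached 0.00489 FPKM in naive WT and was otherwise listed at 0. The 6 ATPases, which form 1 hexamer, lay between 18.1 and 37.9 FPKM in naive NLRP3KO and between 19.4 and 40.2 FPKM in naive WT. The other cap subunits had medians of 22.8 and 18.2 FPKM in naive NLRP3KO and WT, led by the ubiquitin receptor Psmd4 at 54.8 FPKM in NLRP3KO and by Psmd8 at 43.2 FPKM in WT. Assembly chaperones were lower, with medians of 11.5 and 14.2 FPKM and at most 21.2 and 20.7 FPKM. Psma5 at 6.20 and 6.30 FPKM and Psmb3 at 16.6 and 23.8 FPKM were low within their rings in naive NLRP3KO and WT, and 81.4% and 80.7% of their transcripts are shared at this identity with other genes. Psma3, at 4.41 and 4.13 FPKM, was lower still, and its entry overlaps that of 3110056K07Rik. Across the 49 members the log2 values of the naive libraries correlated with a Pearson r of 0.979, those of day 3 with 0.554 and those of day 6 with 0.311, each between NLRP3KO and WT.

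The comparison of NLRP3KO with WT asks what loss of NLRP3 changes at each stage. For it FPKM were scaled to a common median over 1059 genes, and a difference is the log2 of scaled FPKM plus 1. In the naive cells, where depth was highest, the proteasome genes were slightly lower in NLRP3KO after this scaling. Of 46 members kept, 40 were lower and 6 higher, against 4799 lower and 5186 higher of all 9985 genes kept. The median difference was -0.23 for the members and 0.01 over all genes kept. No member was at least 2-fold higher, as were 0.21% of all genes, and 1 was at least 2-fold lower, as were 2.32% of all genes. Without scaling the member median was 0.11 and the median of all genes 0.37, so the sign depended on the scaling, while the members stayed under the median of all genes.
The 1 member past 2-fold was Psma7, an alpha ring subunit (chromosome 2, 179771081 to 179777107). Psma7 had 76.8 FPKM (bounds 53.2 to 78.8) in naive NLRP3KO against 139 FPKM (103 to 130) in naive WT, a log2 difference of -1.24, with a WT value that lies above its own upper bound. Psma4, another alpha ring subunit, had 36.6 FPKM (29.5 to 43.9) in naive NLRP3KO against 55.7 (48.0 to 63.5) in WT, a difference of -0.95. Psmd5, a chaperone of the ATPase ring, had 10.0 FPKM (7.24 to 12.7) against 15.6 (12.2 to 18.6), a difference of -0.82.
At the other end, the cap subunit Psmd3 had 22.8 FPKM (bounds 17.96 to 27.2) in naive NLRP3KO against 12.8 (9.99 to 15.2) in WT (log2 difference 0.34), the inhibitor gene Psmf1 had 8.03 (6.26 to 9.80) against 4.13 (3.09 to 5.13) (0.33) and the deubiquitinase Psmd14 had 27.6 against 18.2 (0.16). With the deposited bounds 4 of 46 members did not overlap, against 3100 of all 9985 genes kept. These were Psma4 and Psma7, lower in NLRP3KO, and Psmd3 and Psmf1, higher in NLRP3KO. After the bounds were scaled like the values, 6 members had bounds that did not overlap and were lower in NLRP3KO, namely Psma2, Psma4, Psma7, Psmd1, Psmd11 and Psmd5, against 9.07% of all genes, and none was higher, against 6.62%.

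**Figure D3:**
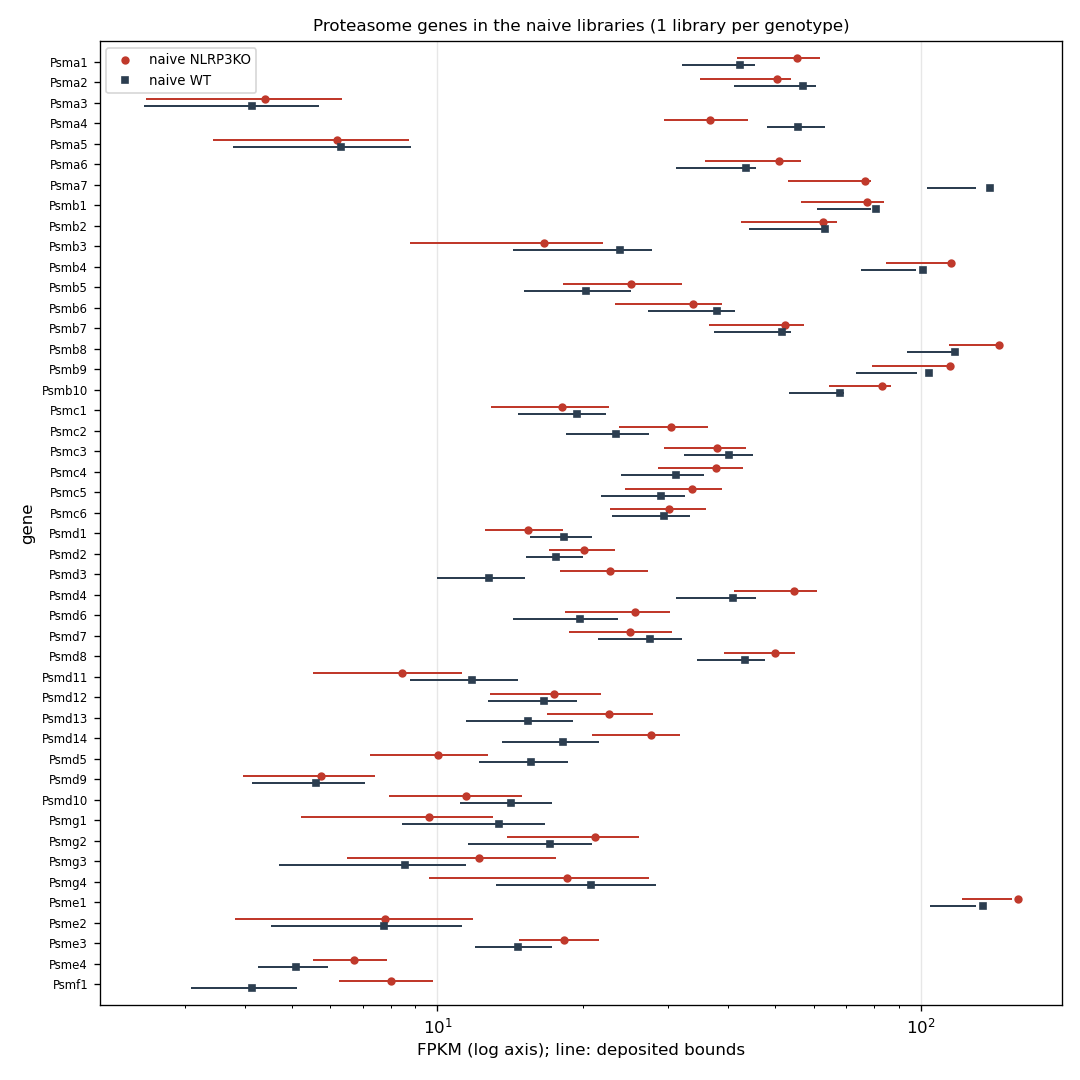
FPKM of the 46 members kept in the naive libraries (log axis), with the deposited bounds as lines, NLRP3KO as circles above WT as squares. Psma7 stands out with 76.8 FPKM in NLRP3KO and 139 FPKM in WT.

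Pooled by role, the fragments of all members took 0.435% (0.425 to 0.446) of the gene fragments in naive NLRP3KO and 0.511% (0.4998 to 0.522) in naive WT, a ratio of 0.852 (95% exact interval 0.825 to 0.881). By role the ratio of NLRP3KO to WT was 0.669 (0.615 to 0.729) for the alpha ring, 0.697 (0.609 to 0.797) for the assembly chaperones, 0.821 (0.756 to 0.893) for the beta ring and 0.866 (0.792 to 0.946) for the ATPases. The immunoproteasome genes had a ratio of 0.954 (0.877 to 1.04) and the activators one of 0.960 (0.858 to 1.07), both intervals holding 1. The inhibitor gene Psmf1 was on the other side, at 1.55 (1.13 to 2.14). Over the estimated totals behind the deposited FPKM, 3110217 fragments in naive NLRP3KO and 4568423 in naive WT, the ratio of all members lies above 1. So do those of the beta ring and the ATPases, while those of the alpha ring and the assembly chaperones stay below 1. The direction of the pooled difference therefore depends on the denominator.
Transcript length moved with this difference: over all genes the median log2 difference was -0.48 for transcripts of up to 1000 bases, -0.07 between 1000 and 2000 bases and 0.05 above, and for members it was -0.41 (7 genes), -0.19 (27) and -0.22 (12) in the same classes. Erythroid markers summed to 455 FPKM in naive NLRP3KO against 177 FPKM in naive WT, and B cell markers to 33.0 against 74.2 FPKM. Their part in the differences was not tested. In bulk RNA, fewer cells of a type and less RNA per cell cannot be told apart.

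At day 3 the counts of members on either side lay close to those of all genes. Of 39 members kept, 8 were at least 2-fold higher and 14 at least 2-fold lower in NLRP3KO, against 25.4% and 27.2% of all genes, and the median difference was -0.14 against 0.11 for all genes. The pooled ratio of NLRP3KO to WT was 1.01 (0.766 to 1.33). Psmd7, a cap subunit that pairs with Psmd14, was listed at 0 in NLRP3KO and had 6.83 FPKM (2.07 to 11.4) in WT, where 3 fragments correspond to 3.94 FPKM in the NLRP3KO library. Psmd7 and Psmd3 were the members lower in NLRP3KO with scaled bounds apart, against 2.59% of all genes, and none was higher, against 1.93%. Both were listed at 0 in NLRP3KO, with bounds of 0 to 0, and their scaled WT levels were above that of 3 fragments in the NLRP3KO library.
Among members above 0 in both libraries, Psmd4 had 7.60 FPKM in NLRP3KO against 1.497 in WT (log2 difference 1.85), Psme4 had 2.00 against 0.263 (1.58) and Psmd1, the large scaffold of the cap base, had 3.38 against 1.06 (1.16). The lowest were the ATPase gene Psmc1, at 1.56 against 4.92 FPKM (-1.53), the cap subunit Psmd11, at 1.32 against 4.15 (-1.49), and Psma4, at 4.43 against 10.5 (-1.31). In all 6 the deposited bounds overlapped, and the smaller value of each pair rested on 1.02 to 2.45 estimated fragments. Of the Psmc1 and Psmd11 transcripts 45.8% and 52.7% are shared at 97% identity or more with other genes, so the levels of both are uncertain in every library.

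At day 6 the NLRP3KO library held 21 fragments of the members against 147 in WT. Of 40 members kept, 4 were at least 2-fold higher and 28 at least 2-fold lower in NLRP3KO, against 20.9% and 53.8% of all genes, and the median difference was -2.40 against -1.52 for all genes. All 28 were listed at 0 in NLRP3KO, and for all 28 the scaled WT level was under that of 3 fragments in the NLRP3KO library, whose fragment number is the lowest, so that library depth and genotype cannot be told apart here. Among the 12 members above 0 in both libraries the median was 0.86, against 0.33 for all such genes, so the direction turns with the treatment of zeros. The share of gene fragments was 0.368% (0.223 to 0.551) in NLRP3KO and 0.457% (0.386 to 0.536) in WT, a ratio of 0.806 (0.475 to 1.25).
Among these, 6 members had at least 5 FPKM in WT and deposited bounds that did not overlap: Psma6 and Psma7 of the alpha ring, with 10.4 and 9.60 FPKM in WT, Psmb2 and Psmb4 of the beta ring, with 15.1 and 10.995 FPKM, and the ATPase genes Psmc1 and Psmc5, with 10.5 and 6.26 FPKM. For Psmb2 3 fragments correspond to 36.4 FPKM in the NLRP3KO library and for Psmc1 to 15.5 FPKM, both above the WT level. With Psmd11, 7 members had scaled bounds apart and were lower in NLRP3KO, against 12.4% of all genes, and none was higher, against 0.225%. All 7 were listed at 0 in NLRP3KO, where a gene at 0 has bounds of 0 to 0. As no member had a lower bound above 0 in that library, none could be called higher.
The 6 ATPase genes together had 0 fragments in NLRP3KO against 25 in WT, a ratio with an upper limit of 0.879, and the immunoproteasome genes had 6 against 11, a ratio of 2.81 (0.916 to 8.90). Of the members above 0 in both libraries, Psma1 had 13.9 FPKM in NLRP3KO against 1.60 in WT (log2 difference 2.59), Psmd8 had 16.9 against 3.89 (1.81) and Psmb9 had 11.7 against 2.67 (1.77). The lowest were Psmb1, at 8.68 against 15.9 FPKM (-0.99), Psme3, at 6.24 against 9.33 (-0.70), and Psmd4, at 6.98 against 6.40 (-0.04). The bounds overlapped in all 6, and the NLRP3KO values rested on 1.13 to 3.33 estimated fragments each.

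The day 3 libraries were set against the naive ones to ask how the cells change on Th2 culture, with the library method confounded. Immunoproteasome fragments took a smaller share of the gene fragments at day 3 than in the naive libraries in both genotypes. In NLRP3KO Psmb5, Psmb6 and Psmb7 together had 2 fragments at day 3 against 296 naive, beside 9 against 1039 for the immunoproteasome genes. In WT the counts were 6 against 420 and 7 against 1265. A difference between these 2 kinds of genes was not tested. The ATPases held a share of the gene fragments near that of the naive cells. In NLRP3KO 2 of 46 members were at least 2-fold higher and 19 at least 2-fold lower at day 3, against 10.8% and 32.1% of all genes, with a median difference of -0.56 against -0.53 for all genes. In WT 0 of 46 were at least 2-fold higher and 21 at least 2-fold lower, against 9.99% and 31.3% of all genes, with a median of -0.90 against -0.52. Many of these calls rest on zeros that the low number of fragments on genes alone allows. At day 3 14 members in NLRP3KO and 12 in WT were listed at 0. For 10 of them in each genotype the scaled naive level was under the scaled FPKM of 3 fragments at day 3.
With scaled bounds apart, 17 members were lower at day 3 in NLRP3KO and 18 in WT, against 43.2% and 40.0% of all genes, and none was higher in either, against 2.84% and 3.12%. The 14 members in NLRP3KO and 12 in WT listed at 0 at day 3 were among them. Bounds of a gene at 0 are 0 to 0, so these members count as apart from any naive lower bound above 0. Without scaling 45 members in NLRP3KO and 46 in WT were at least 2-fold lower, against 88.4% and 86.3% of all genes.

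By role, the pooled immunoproteasome fragments at day 3 took 0.483 (0.216 to 0.902) of their naive share in NLRP3KO and 0.292 (0.120 to 0.620) in WT, intervals below 1 in both. The ATPases stood at 1.05 (0.624 to 1.73) in NLRP3KO and 1.14 (0.718 to 1.68) in WT, and the other cap subunits at 0.953 (0.631 to 1.40) and 1.00 (0.705 to 1.40). The alpha ring had 0.806 (0.444 to 1.44) and 0.523 (0.282 to 0.869), the beta ring 0.776 (0.434 to 1.34) and 0.822 (0.517 to 1.29), the assembly chaperones 0.637 (0.168 to 1.60) and 0.365 (0.1002 to 0.949), and the activators 1.60 (0.936 to 2.61) and 0.904 (0.482 to 1.65), in NLRP3KO and WT. All members together had 0.877 (0.716 to 1.07) in NLRP3KO and 0.744 (0.614 to 0.892) in WT. These intervals rest on 4 to 36 fragments per role at day 3, and differences between roles or genotypes in these ratios were not tested. The estimated totals behind the deposited FPKM were 474933 fragments in NLRP3KO and 603753 in WT at day 3, against 3110217 and 4568423 naive. Over these totals each of the ratios above lies below 1. A ratio near 1, as for the ATPases and the other cap subunits, therefore holds over fragments on genes only.

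**Figure D4:**
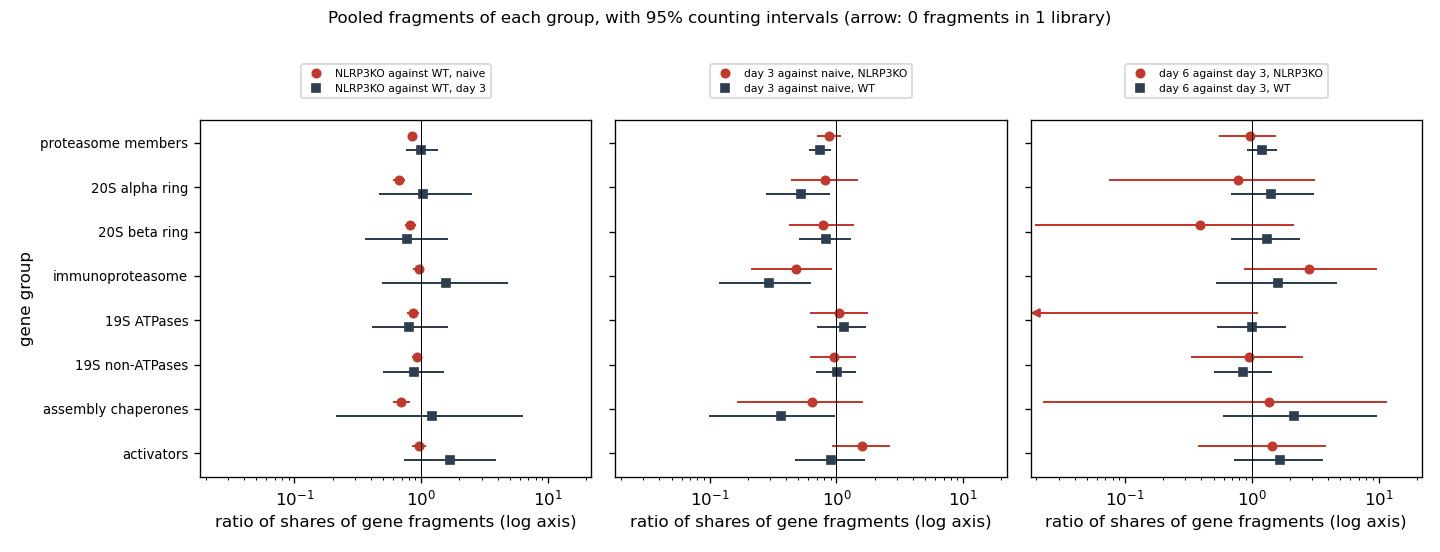
Ratio of the share of gene fragments taken by each group of members, with 95% exact counting intervals, on a log axis, where an arrow marks 0 fragments: NLRP3KO against WT in naive cells and at day 3 (left), day 3 against naive (middle) and day 6 against day 3 (right) in NLRP3KO and WT. In the middle panel the immunoproteasome lies below 1 in both genotypes and the ATPases lie near 1. In WT the intervals of the alpha ring and the assembly chaperones lie below 1 as well.

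Both genotypes gave Psma5, Psma6, Psma7, Psmb3, Psmb7, Psmb9, Psmb10, Psmd2, Psmd14, Psmd9, Psmd10, Psmg2 and Psmg4 as at least 2-fold lower at day 3. Scaled bounds overlapped for Psma6 and Psmd14 in NLRP3KO and for Psmd2 in WT. These 13 were 68.4% of the lower members of NLRP3KO and 61.9% of those of WT, and among all genes the shared ones were 51.7% and 55.9%. The 2 comparisons share no library, and over the 46 members their log2 differences had a Pearson r of 0.303, against 0.482 over 9279 genes kept in both.
Psma7 had 2.86 FPKM at day 3 against 76.8 naive in NLRP3KO (log2 difference -1.70) and 4.50 against 139 in WT (-2.21). Psma6, of the same ring, had 2.47 against 50.9 in NLRP3KO (-1.32) and 1.95 against 43.4 in WT (-1.63). Psmd2, the scaffold beside Psmd1, was listed at 0 against 20.1 FPKM in NLRP3KO and had 1.18 against 17.6 in WT (-1.01). Psmd14, the deubiquitinase, had 1.51 against 27.6 in NLRP3KO (-1.08) and was listed at 0 against 18.2 in WT.
The chaperones Psmd9 and Psmd10, which act on the ATPase ring, and Psmg2 and Psmg4, which act on the alpha ring, were listed at 0 at day 3 in both genotypes, against 5.73, 11.5, 21.2 and 18.5 FPKM in naive NLRP3KO and 5.62, 14.2, 17.1 and 20.7 FPKM in naive WT. Their scaled naive levels, 1.40, 2.81, 5.19 and 4.54 in NLRP3KO and 1.84, 4.65, 5.61 and 6.80 in WT, were under the scaled FPKM of 3 fragments at day 3, 4.32, 7.85, 9.12 and 20.2 in NLRP3KO and 3.86, 7.00, 8.13 and 18.04 in WT, so a decrease was not detectable at this depth. Psma5 and Psmb3, also listed at 0 at day 3 in both genotypes, were under it as well.
Psmb8 differed by -0.53 in NLRP3KO and by -1.26 in WT, Psmb9 by -2.13 in NLRP3KO, and Psmb10 by -2.55 in WT, with the other value of the last 2 genes at 0 at day 3. Psmb5 was level or higher after scaling, with differences of 0.66 in NLRP3KO and 0.41 in WT.

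Further members were at least 2-fold lower at day 3 in 1 genotype, with 5 FPKM or more in the naive library. Deposited bounds, which are not scaled, were apart between naive and day 3 for nearly all members (43 of 46 in NLRP3KO and 45 of 46 in WT) and carry no information here. In NLRP3KO the further members were Psma1, at 1.90 FPKM at day 3 against 55.5 naive (-1.74), and Psmb6, Psmc5, Psmd3, Psmd7 and Psmg3, all listed at 0 at day 3 against 33.8, 33.5, 22.8, 25.01 and 12.2 FPKM. Of these 5 at 0, Psmd3 alone had a scaled naive level, 5.58, that reached the scaled 5.23 FPKM of 3 fragments at day 3. In WT they were Psma2, listed at 0 against 57.2 FPKM, Psme2, listed at 0 against 7.75 FPKM, Psmb8, Psmd1 at 1.06 against 18.3 (-1.15), Psmd4 at 1.497 against 40.9 (-1.84) and Psmd5 at 0.873 against 15.6 (-1.15). The scaled naive WT level of Psma2, 18.75, was above the scaled 10.1 FPKM of 3 fragments at day 3. That of Psme2, 2.54, was under 10.4, so a decrease of Psme2 was not detectable at this depth. The scaled bounds of Psmd1 and Psmd5 overlapped. Psma2, an alpha ring gene, had 5.25 FPKM at day 3 in NLRP3KO, so the listed 0 in WT was not shared by the other genotype.
The highest members above 0 at both stages were Psma3 (1.72), Psme2 (1.21) and Psmd8 (0.95) in NLRP3KO and Psmd11 (0.95), Psmd3 (0.85) and Psmg3 (0.61) in WT, given as log2 differences of day 3 against naive.

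**Figure D5:**
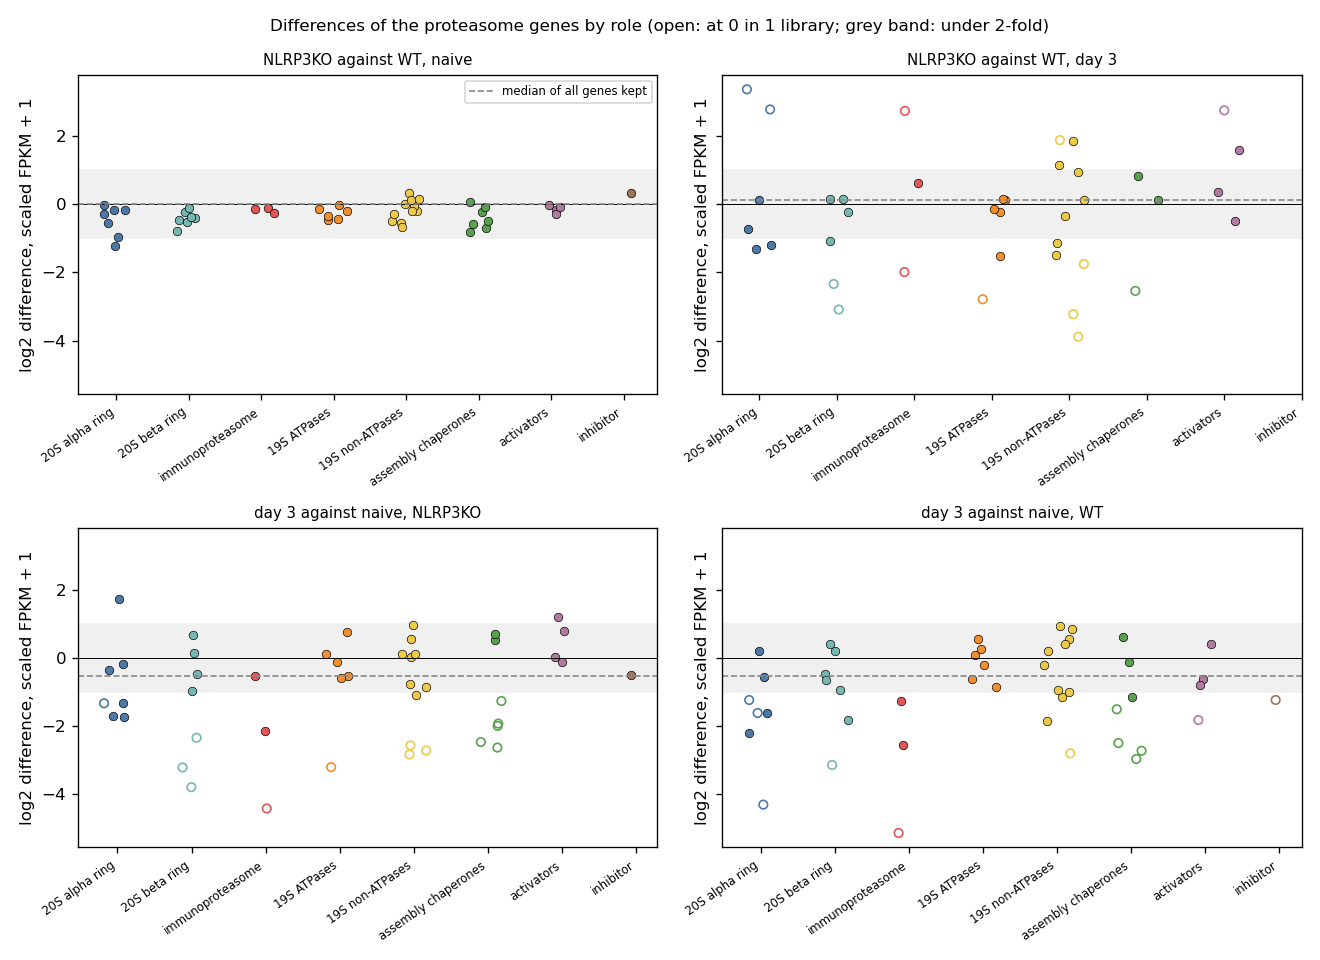
Log2 difference of each member by role, for NLRP3KO against WT (naive and day 3) and day 3 against naive (NLRP3KO and WT), with filled points for members above 0 in both libraries, open points for those at 0 in 1, a grey band under 2-fold and a dashed line at the median of all genes kept. In the naive panel all points but Psma7 stay within 2-fold.

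The pooled share of the members at day 6 could not be told from that at day 3 in either genotype. In NLRP3KO 6 of 32 members were at least 2-fold higher and 20 at least 2-fold lower at day 6, against 21.0% and 51.8% of all genes, and the pooled ratio was 0.964 (0.558 to 1.52). The ATPase genes Psmc3 and Psmc6 were both listed at 0 at day 6 against 5.65 and 7.41 FPKM at day 3, and with Psmd1 they were the 3 members lower with scaled bounds apart, against 8.41% of all genes, and none was higher, against 0.0576%. A gene at 0 has bounds of 0 to 0, and 3 fragments at day 6 correspond to 14.1, 14.8 and 7.10 FPKM of Psmc3, Psmc6 and Psmd1, above their day 3 levels, the last being 3.38 FPKM. For all 20 members kept and listed at 0 at day 6 in NLRP3KO the scaled day 3 level was under that of 3 fragments. No NLRP3KO member had a lower bound above 0 at day 6, so none could be called higher. In WT 12 of 39 were at least 2-fold higher and 3 at least 2-fold lower at day 6, against 24.1% and 20.2% of all genes, with a pooled ratio of 1.203 (0.937 to 1.55), and no member had scaled bounds apart, against 1.34% and 1.47% of all genes.
Among members above 0 at both days, the highest in WT were Psma6, at 10.4 FPKM at day 6 against 1.95 at day 3 (log2 difference 2.02), Psmd4, at 6.40 against 1.497 (1.66), and Psmb10, at 6.30 against 1.47 (1.66). The lowest in WT were Psmd7, at 1.22 against 6.83 (-2.19), Psma1 (-1.36) and Psmd13, a cap subunit (-1.30). In NLRP3KO, likewise among members above 0 at both days, the highest were Psma1 (2.43), Psmb9 (1.58) and the chaperone Psmg1 (1.55). The lowest were Psme4 (-0.61), Psmb1 (-0.55) and Psmd4 (-0.24). The day 6 values of these NLRP3KO genes rested on 1.02 to 2.17 estimated fragments each.

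Other genes of the pathway were followed through 4 lists. In naive cells 0 of 7 peptide loading genes, 0 of 5 transcription factors, 0 of 8 other proteasome parts and 0 of 14 ubiquitin and shuttle genes passed 2-fold on the higher side in NLRP3KO, and Uchl5 and Rps27a were among the genes at least 2-fold lower. The median differences of the lists were 0.20, 0.26, -0.16 and 0.02. Tap1, which shares its upstream region with Psmb9, had 88.8 FPKM (81.4 to 96.2) in naive NLRP3KO against 39.9 (36.0 to 43.8) in WT, while Psmb9 had 115 against 104. Scaled, Tap1 stood at 21.8 in naive NLRP3KO against 13.1 in WT, and Psmb9 at 28.2 against 34.1. Irf1, an interferon-induced transcription factor, had 90.7 FPKM in naive NLRP3KO against 59.4 in WT, or 22.2 against 19.5 once scaled.
At day 3 against naive, where 32.1% of all genes in NLRP3KO and 31.3% in WT were at least 2-fold lower, 4 of 7 peptide loading genes were so in each genotype, with B2m, H2-D1 and H2-K1 in both. Of the transcription factors 3 of 5 were lower in NLRP3KO, where Nfe2l1, which induces proteasome genes when proteasomes are inhibited, was higher, and 4 of 5 were lower in WT. At day 3 Irf1 had 2.16 FPKM in NLRP3KO and a listed 0 in WT, and Nfe2l1 had 4.999 FPKM in NLRP3KO and 2.60 in WT. Of the other proteasome parts 3 of 8 were lower in each genotype, among them Pomp, the chaperone that completes core assembly, listed at 0 against 72.2 FPKM in NLRP3KO and at 2.81 against 84.1 FPKM in WT. Of the ubiquitin and shuttle genes 6 of 14 were lower and 1 (Ddi2) was higher in each genotype.
The list counts of the other comparisons stand beside the all-gene shares given above, 25.4% higher and 27.2% lower between the genotypes at day 3, 20.9% and 53.8% at day 6, 21.0% and 51.8% for day 6 against day 3 in NLRP3KO, and 24.1% and 20.2% in WT. Between the genotypes at day 3, genes past 2-fold on the higher and the lower side in NLRP3KO numbered 2 and 0 of 7 kept for peptide loading, 2 and 0 of 3 for the transcription factors, 2 and 3 of 7 for the other proteasome parts, and 2 and 3 of 13 for ubiquitin and shuttles. At day 6 they were 0 and 3 of 6, 0 and 1 of 3, 0 and 5 of 7, and 1 and 8 of 14 in the same order. For day 6 against day 3 in NLRP3KO they were 0 and 4 of 7, 1 and 3 of 4, 0 and 3 of 5, and 2 and 7 of 13. For day 6 against day 3 in WT they were 1 and 0 of 6, 1 and 0 of 3, 3 and 0 of 6, and 5 and 1 of 14.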

How the data were processed

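RNA of 6 libraries was sequenced on a MiSeq, per the labels. For each library the authors deposited FPKM of 23700 gene entries with lower and upper bounds, per the file headers. TopHat, Cufflinks and mm9 are named in the submitters' processing notes, with no version or gene annotation stated there. The 285 entries not marked OK in all tables were left out. FPKM were scaled to a common level, with factors taken as median ratios to each gene's geometric mean, from the 1059 genes with FPKM of at least 1 in all libraries (factors 0.245 and 0.328 for naive NLRP3KO and WT, 1.78 and 2.02 at day 3, 1.62 and 1.83 at day 6), and a pseudocount of 1 was added before log2, which understates differences of low genes. Genes with FPKM of at least 1 in 1 of the 2 libraries were kept. With 1 library per group no test was made.

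Fragments were estimated from the deposited FPKM, the bounds and transcript lengths, which came from the bounds of the Th2 libraries for 21 members and otherwise from GENCODE M21, capped for 7 members at 1.81 times the length that the naive bounds imply. Shared sequence was found with blastn 2.17.0 at 97% identity over at least 50 bases. Members on chromosome 18 (Psma8 and Psmg2) were left out of the promoter search, while the promoters of all genes were not filtered by chromosome. The other members outside the 41 had no promoter under their symbol in the sequences used. Starts in the tables were raised by 1 to count from 1. Without stated strand use, overlapping genes (Psma3, Psma4, Psmd1, Psme1 and Psmc3ip) and copies cannot be told apart. For 4 members in naive NLRP3KO and 6 in naive WT the FPKM exceeded or undercut the bounds given with it.

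Named were the catalytic and activator genes, members with FPKM of at least 5 in 1 library, at least 2-fold apart and with deposited bounds apart, and the 3 highest and 3 lowest per comparison among members above 0 in both. The use of scaled bounds was added after seeing the data. Members and lists were chosen with earlier results of these data known. Python 3.11.15, NumPy 2.4.6, pandas 2.3.3, SciPy 1.17.1 and Matplotlib 3.10.9 were used. Alternatives were another pseudocount, filter and scaling.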

Additional observations from a re-analysis of the deposited data

Results flagged for a closer look

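The median log2 difference of the members at day 6 against day 3 was -2.11 in NLRP3KO and 0.39 in WT, which stand out for their opposite signs in the 2 genotypes. The difference between them was not tested, since each group is 1 library. All genes had medians of -1.31 in NLRP3KO and -0.03 in WT in the same comparisons, and the NLRP3KO day 6 library holds 5824 fragments on genes against 32208 in WT at day 6. Among members above 0 in both libraries the signs were the other way, with medians of 0.32 in NLRP3KO and -0.0385 in WT, and at a minimum FPKM of 5 the NLRP3KO median was -0.0613.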

How the results depend on the processing

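Each group is 1 library, so leaving out a replicate was not possible. No paired analysis was possible because the groups share fewer than 2 replicate numbers; a comparison of the genotypes with stage as a block was not made. In naive NLRP3KO against WT, members at least 2-fold lower numbered 3 with a pseudocount of 0.1, 0 with deposited FPKM, 0 with equal FPKM sums and 2 with scaling over the 2 libraries, the median turned to 0.11 with deposited FPKM (all genes 0.37) and 0.0183 with equal sums (all genes 0.23), and the pooled ratio was 0.806 with median ratio scaling. In NLRP3KO against WT at day 3, higher and lower members numbered 5 and 5 with a pseudocount of 5, 2 and 3 at a minimum FPKM of 5, and 3 and 6 among members above 0 in both. At day 6 the median was -5.45 with a pseudocount of 0.1, -0.89 with 5, -3.05 with equal sums and 0.86 among members above 0 in both, lower members numbered 17 with a pseudocount of 5, 11 at a minimum of 5 and 0 above 0 in both, and higher members 8 with equal sums.

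For day 3 against naive in NLRP3KO, higher members numbered 4 with a pseudocount of 0.1, 0 with 5, 1 at a minimum of 5, 0 with deposited FPKM and 7 with equal sums, lower members 10 with a pseudocount of 5, 5 above 0 in both and 45 with deposited FPKM, and the median was -3.11 with deposited FPKM. In WT, higher members numbered 1 with a pseudocount of 0.1 and 5 with equal sums, lower members 12 with a pseudocount of 5, 9 above 0 in both and 46 with deposited FPKM, and the median was -2.98 with deposited FPKM. For day 6 against day 3 in NLRP3KO, the median was -5.09 with a pseudocount of 0.1, -0.0613 at a minimum of 5, -2.97 with equal sums and 0.32 above 0 in both, and lower members numbered 13 with a pseudocount of 5, 6 at a minimum of 5 and 0 above 0 in both. In WT, higher members numbered 6 with a pseudocount of 5, 7 at a minimum of 5 and 5 above 0 in both, and lower members 5 with a pseudocount of 0.1, 1 with 5, 1 at a minimum of 5 and 5 with equal sums. Restricting to genes above 0 in both, or raising the minimum, leaves fewer genes; the cause of the other shifts was not tested. With no minimum FPKM, with annotated transcript lengths (chosen after seeing the data) and without the member with the most fragments, all 35 values stayed within the limits set for a change.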
